A study of Mus musculus with 12 samples.

Results

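Aminoacyl-tRNA synthetases are the enzymes that join each amino acid to its own tRNA, and this account follows their genes in mouse macrophages and liver. The members were chosen by symbol (a capital letter for the amino acid followed by ars, with the phenylalanine subunits *Farsa* and *Farsb* and the glutamate-proline enzyme *Eprs*), which gave 38 genes of the 55335 listed. Of these, 21 were read as cytosolic and 17, with symbols ending in 2, as mitochondrial. The symbol *Tarsl2*, which also ends in 2, names a threonine enzyme of the cytosol and was counted there. The family, its 2 classes and *Wars* were singled out with earlier results of these libraries in view, so the genotype differences below are descriptions, and the counts of members past a threshold between genotypes, or in their interaction with tissue, are printed for completeness with nothing read from them. All 38 genes had enough reads to enter every fit.

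The mice were male C57BL/6N littermates with loxP-flanked *Tshr*, the gene for the thyrotropin (TSH) receptor. Tshr f/f mice carried this allele alone and Tshr MKO mice carried it with the Lyz2-Cre transgene, which acts in myeloid cells. Bone-marrow-derived macrophages (BMDMs) came from mice 6 weeks old by the labels (6 to 8 weeks in the study's methods), were grown for 7 days with M-CSF at 10 ng/mL, and were all given TSH at 1 ng/mL for 24 h, so no BMDM library without TSH was analysed here. Livers came from mice put on a high-fat diet at 6 weeks of age for 9 weeks, fasted for 8 h and taken 5 min after insulin at 1.5 U/kg. Each of the 4 groups had n = 3 libraries. The study's methods give mice as the source of the RNA with n = 3 per group, and do not say whether each BMDM library was a separate animal or culture, so the p-values measure the spread between these libraries.

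Libraries held 28962878 to 40954211 counts, and the least abundant member, *Tarsl2* in f/f BMDM replicate 3, had 26 counts. The receptor itself had 0 to 5 counts in any library, too few to check the genotype. For the livers, a listing of receptor counts by the study heads its columns the other way round, since all 72 of its values equalled that of a library labelled with the genotype other than the heading. The livers are therefore named by their labels, and the sign of each liver difference rests on those labels. The BMDMs expressed all 8 macrophage markers examined, and 7 of 8 hepatocyte markers stayed at or under 3 counts in each BMDM library. In bulk RNA, fewer cells of a type and less RNA per cell cannot be told apart.

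Cells translate with 2 protein-making systems, and each needs charged tRNAs. Most cytosolic enzymes have a separate mitochondrial partner made from another nuclear gene, whereas *Gars* (glycine) and *Kars* (lysine) serve both compartments. A group of cytosolic enzymes is held in the multi-synthetase complex by the scaffold proteins AIMP1, AIMP2 and EEF1E1. Transcription of many cytosolic synthetases is raised by ATF4, a factor made when amino acids are scarce or proteins misfold, and *Wars* (tryptophan) is a classic gene of the interferon-gamma response in macrophages, where tryptophan is also broken down by IDO1.

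Promoter windows were searched because ATF4 with C/EBP partners binds a known element, the letters TGATGNAA on either strand. RefSeq windows (GRCm38.p6, 250 bases before to 50 bases after the start site) were matched for 28 of 38 members. The element was present in 5 of the 28 matched members, all of them cytosolic, which is 17.9% of the matched members, beside 3.97% of all 32851 windows. A member counts once if any of its windows held the element, whereas the second share counts windows, so the shares are unlike measures. This also holds for the other elements below. The motif was chosen with the expression values known, and a match is a description of letters and not of binding. The stretches of 60 bases around each match show how close the element lies to the start site, with the element in capitals. They lie at chr8:111033704-111033763 and chr8:111033825-111033884 (*Aars*, plus strand), chr6:55037945-55038004 (*Gars*, plus), chr13:49682111-49682170 (*Iars*, plus), chr15:11399640-11399699 (*Tars*, minus) and chr4:129189880-129189939 (*Yars*, plus).
Aars, upstream: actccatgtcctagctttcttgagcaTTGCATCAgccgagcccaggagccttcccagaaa
Aars, at the start: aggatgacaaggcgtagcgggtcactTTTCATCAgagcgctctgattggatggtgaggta
Gars: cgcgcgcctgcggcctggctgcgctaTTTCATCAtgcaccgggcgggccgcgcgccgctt
Iars: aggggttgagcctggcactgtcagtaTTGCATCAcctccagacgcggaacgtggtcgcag
Tars: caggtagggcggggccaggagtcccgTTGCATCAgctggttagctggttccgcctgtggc
Yars: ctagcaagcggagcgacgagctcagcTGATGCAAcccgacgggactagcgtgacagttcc

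Counting the start site as 0, the first base of the element stood at -112 and 9 in *Aars*, -30 in *Gars*, 7 in *Iars*, -15 in *Tars* and 3 in *Yars*. The element ran on the opposite strand to the gene in every stretch but that of *Yars*. The other elements also lay mostly in cytosolic members, with *Nars2* or *Ears2* as the mitochondrial member. The gamma-activated site (TTCNNNGAA) was in *Aars*, *Kars* and *Nars2*, 10.7% of matched members beside 8.30% of all windows. The E-box (CACGTG) was in *Aars*, *Ears2*, *Farsb*, *Iars* and *Tars*, 17.9% beside 7.15%.

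*Wars*, the cytosolic tryptophan enzyme (chromosome 12, 108860030 to 108894174, minus strand, GRCm38), had the largest difference of the family in BMDMs. Its level was 202, 176 and 244 CPM (counts scaled to 1000000 per library with TMM factors) in the f/f BMDMs and 72.9, 86.3 and 90.6 CPM in the MKO BMDMs. The groups did not overlap, and the lowest f/f value was well above the highest MKO value. The fitted difference was -1.32 ± 0.18 on the log2 scale (SE, n = 3 per group), or 2.49-fold lower in MKO. Leaving out any library kept it between -1.42 and -1.18. *Wars2*, its mitochondrial partner (chromosome 3, 99141068 to 99239186, plus strand), stood at 11.1, 11.8 and 12.2 CPM in f/f and 11.0, 10.2 and 13.8 CPM in MKO BMDMs, which overlapped (log2 difference -0.01 ± 0.17). This sign of *Wars2* turned with the scaling. The ratio of *Wars* to *Wars2*, which needs no scaling between libraries, was 18.2, 14.9 and 19.9 in f/f and 6.62, 8.47 and 6.55 in MKO BMDMs.

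**Figure D1:**
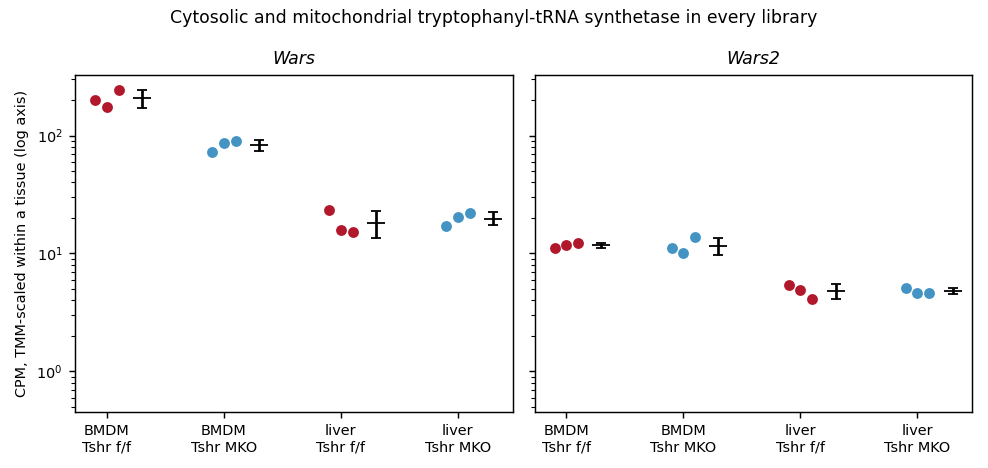
Levels of *Wars* (left) and *Wars2* (right) in CPM on a log axis, with 1 point per library, and the mean and SD (n = 3) as a bar beside each group. In BMDMs the f/f values of *Wars* (176 to 244 CPM) lie above the MKO values (72.9 to 90.6 CPM), while the *Wars2* groups overlap. BMDM and liver libraries were scaled separately.

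Against its own family *Wars* also stood apart in BMDMs. Its log2 CPM exceeded the median of the other 37 members by 2.06, 1.80 and 2.41 in f/f BMDMs and by 0.82, 0.99 and 1.31 in MKO BMDMs. In fitted differences, *Wars* lay 1.21 below the median of the others (their median was -0.10, from -0.73 to 1.09). As a share of all counts of the family, with no scaling, *Wars* made up 7.80%, 7.03% and 9.25% in f/f and 3.54%, 3.94% and 5.02% in MKO BMDMs. In livers this share was 1.06% to 1.36% under the f/f label and 1.24% to 1.50% under the MKO label.

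In the livers *Wars* did not separate. It stood at 23.6, 15.9 and 15.2 CPM under the f/f label and 17.1, 20.2 and 22.1 CPM under the MKO label (log2 difference 0.12 ± 0.19). *Wars2* stood at 5.45, 4.85 and 4.08 CPM and at 5.11, 4.64 and 4.64 CPM (0.00 ± 0.19). The ranges overlapped for both genes.

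Most other cytosolic synthetases also had lower values in MKO BMDMs, by smaller amounts. Of 21 cytosolic members, 19 had a negative log2 difference, with a median of -0.37, and the median of all 15372 genes tested was 0.01. *Qars* (0.15 ± 0.13) and *Tarsl2* (1.09 ± 0.46) had positive values. Of the 17 mitochondrial members, 6 had a negative and 11 a positive difference, with a median of 0.14 and a range from -0.21 (*Ears2*, glutamate) to 0.47 (*Vars2*, valine). Without MKO replicate 3 the cytosolic median was -0.22, and without f/f replicate 3 the mitochondrial median was -0.00.

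*Rars*, which charges arginine and belongs to the multi-synthetase complex, came next after *Wars* among the negative differences. Its values were 118, 93.9 and 172 CPM in f/f and 79.6, 73.6 and 78.3 CPM in MKO BMDMs, without overlap (-0.73 ± 0.23). The f/f replicate 3 was far above the other f/f libraries, and without it the difference was -0.46.

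*Aars*, the alanine enzyme, whose promoter window held 2 copies of the element, stood at 297, 265 and 314 CPM in f/f and 208, 226 and 129 CPM in MKO BMDMs (-0.64 ± 0.24). *Cars*, for cysteine, stood at 73.1, 59.4 and 69.2 CPM against 46.8, 52.1 and 35.2 CPM (-0.59 ± 0.18). Neither gene had overlapping groups, and MKO replicate 3 had the lowest value of both. *Mars1*, the methionine enzyme on which translation starts, stood at 77.6, 77.7 and 68.9 CPM against 51.9, 59.7 and 41.2 CPM (-0.55 ± 0.16), again with separate groups and the lowest value in MKO replicate 3.

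*Gars* had one of the tightest sets of values, at 128, 122 and 128 CPM in f/f and 89.5, 97.5 and 86.9 CPM in MKO BMDMs (-0.46 ± 0.12). *Kars* followed at -0.42 ± 0.14, *Eprs* at -0.41 ± 0.19 and *Farsa* at -0.40 ± 0.14. The f/f and MKO values of all 4 genes were separate. *Farsb*, which encodes the other subunit of the phenylalanine enzyme, differed by -0.10 ± 0.11 with overlapping groups. The members with the element in their promoter window ranged from -0.64 (*Aars*) to -0.13 (*Iars*). Cytosolic members with a window but no element ranged from -0.55 (*Mars1*) to 1.09 (*Tarsl2*). Without *Tarsl2* and *Qars*, the only positive values, they ranged from -0.55 to -0.10 (*Dars*), much like the members with the element. *Wars* and *Rars*, with the most negative differences, had no window.

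*Tarsl2*, a second cytosolic threonine enzyme, was the member with the largest positive difference. Its values were 3.62, 2.98 and 1.00 CPM in f/f and 5.14, 5.04 and 6.05 CPM in MKO BMDMs. The groups were separate, but f/f replicate 3, with 26 counts, was far below the other f/f libraries, and the difference fell from 1.09 to 0.71 without it. *Tars*, the main threonine enzyme, went the other way (-0.37 ± 0.13). *Tarsl2* overlaps *Tm2d3* on the same strand.

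With edgeR quasi-likelihood tests, 0 of 38 members had an adjusted p under 0.05 between BMDM genotypes, as did 0.00% of all genes tested. At an unadjusted p under 0.05, 9 members were lower (all cytosolic) and 0 higher, beside 10.2% and 7.73% of all genes. Groups did not overlap for 15 members that were lower, 14 of them cytosolic, and for 2 that were higher (*Tarsl2* and *Iars2*, isoleucine), beside 14.0% and 14.8% of all genes. DESeq2 called 2 members at an adjusted p under 0.05 (*Gars* and *Wars*), where it called 7.96% of all genes. The 9 became 4 without f/f replicate 1, 5 without MKO replicate 1 and 5 without MKO replicate 3, and the 15 became 9 with upper-quartile scaling. Since this contrast was in view when the family was chosen, nothing is read from these counts.

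**Figure D2:**
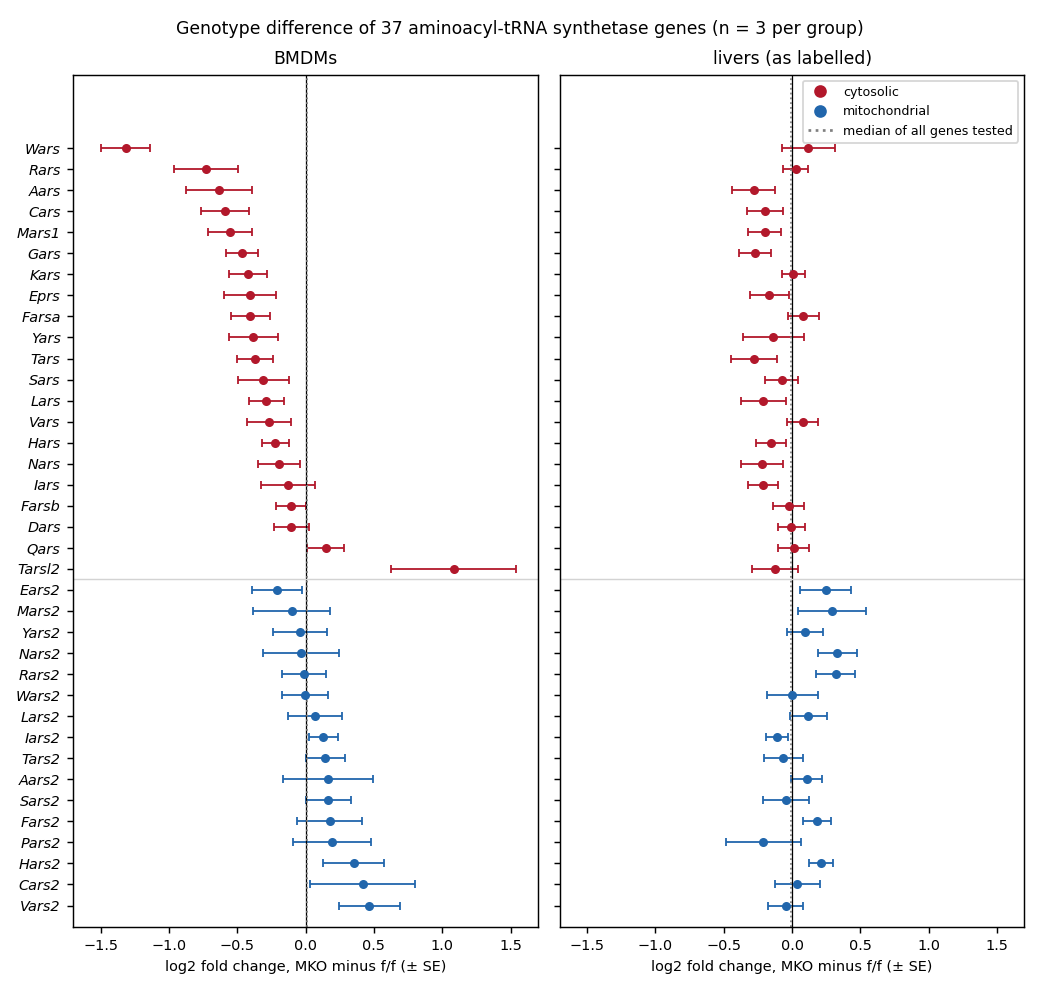
Log2 fold change (MKO minus f/f) of 37 of the 38 members with its SE, in BMDMs (left) and livers (right), cytosolic members above and mitochondrial members below the grey line, in the order of the BMDM values. In BMDMs 19 of 21 cytosolic members lie left of 0 and *Wars* is farthest left at -1.32, while in livers the values run from -0.28 to 0.33. The dotted line is the median of all genes tested.

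The 2 classes were also compared within each library. The mean log2 CPM of the cytosolic members was 6.41, 6.32 and 6.32 in f/f and 6.07, 6.16 and 5.90 in MKO BMDMs. That of the mitochondrial members was 3.56, 3.71 and 3.14 in f/f and 3.64, 3.62 and 3.63 in MKO BMDMs. The cytosolic groups were separate and the mitochondrial groups overlapped, with f/f replicate 3 lowest. The gap between the classes, which does not depend on scaling, was 2.85, 2.61 and 3.18 in f/f and 2.43, 2.54 and 2.27 in MKO BMDMs, so every f/f library had the wider gap.

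This narrower gap held within amino acids. For 14 amino acids with both a cytosolic and a mitochondrial member, the cytosolic gene had the more negative BMDM difference in 14 of 14 pairs, by a median of 0.50 on the log2 scale (from 0.16 for asparagine to 1.31 for tryptophan). The pairs share libraries and are not replicates. As shares of all counts without TMM scaling, the cytosolic members held 0.230%, 0.245% and 0.178% in f/f and 0.191%, 0.211% and 0.154% in MKO BMDMs, which overlapped. The normalization factor of f/f replicate 3 was 0.738, against 0.993 to 1.114 in the other BMDM libraries, and this library had both the lowest mitochondrial mean and the highest *Wars*.

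The multi-synthetase complex was compared with the rest of the cytosolic class. Of the 8 synthetases of the multi-synthetase complex, 7 had negative BMDM differences (median -0.35), and of the 13 other cytosolic members 12 did (median -0.37). Among the scaffolds, *Eef1e1* stood at 19.6, 14.4 and 27.5 CPM in f/f and 11.0, 11.8 and 10.5 CPM in MKO BMDMs (-0.88 ± 0.25), with separate groups. *Aimp1* (-0.13 ± 0.14) and *Aimp2* (-0.04 ± 0.24) had overlapping groups, and the sign of *Aimp2* turned with upper-quartile scaling. The 8 elongation factors, some of which carry charged tRNAs to the ribosome or move it along, had a median of -0.02, with 0 at an unadjusted p under 0.05.

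The helpers of mitochondrial charging had positive differences in BMDMs (median 0.33). *Gatb*, *Gatc* and *Qrsl1*, the subunits that turn glutamate on its tRNA into glutamine, and *Mtfmt*, which formylates the initiator methionine, ranged from 0.10 to 0.71, with 0 of 4 at an unadjusted p under 0.05. *Gatc* stood at 15.8, 16.7 and 6.26 CPM in f/f and 21.9, 21.1 and 20.4 CPM in MKO BMDMs, with separate groups and f/f replicate 3 again lowest.

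**Figure D3:**
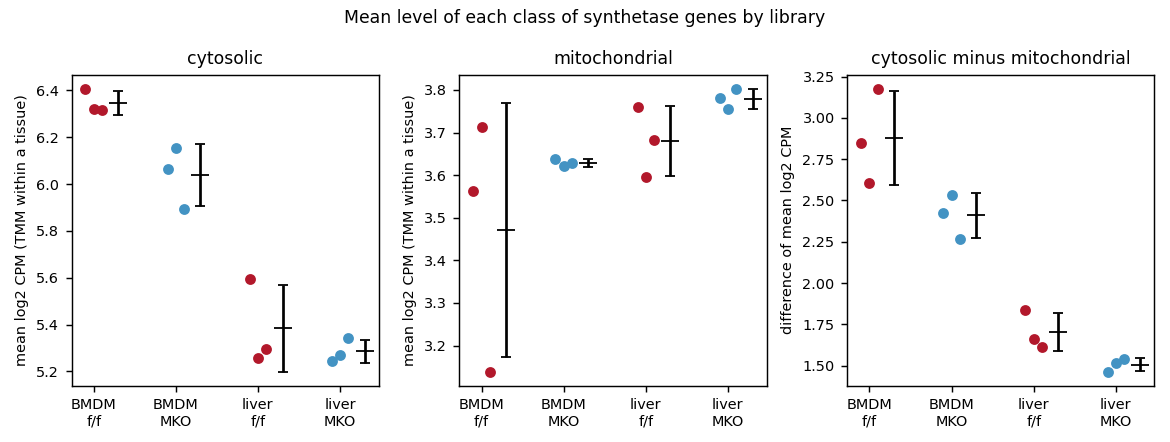
Mean log2 CPM of the cytosolic members (left) and the mitochondrial members (middle) in each library, and the difference of the 2 means (right), with the mean and SD (n = 3) beside each group. In the right panel every f/f library lies above every MKO library of its tissue. The left and middle panels were scaled within a tissue and cannot be read across tissues.

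Lists of genes known to share regulators with the synthetases were examined in the same BMDM libraries. Of 29 ATF4 and amino acid response genes, 28 were tested, of which 25 had a negative difference (median -0.56), with 9 lower and 0 higher at an unadjusted p under 0.05, beside 10.2% and 7.73% of all genes, and 0 at an adjusted p under 0.05 (edgeR). *Atf4* itself stood at 293, 263 and 351 CPM in f/f and 247, 262 and 224 CPM in MKO BMDMs (-0.31 ± 0.17), barely separate. *Asns*, for asparagine synthesis, stood at 50.5, 42.7 and 80.7 CPM against 27.2, 38.0 and 12.02 CPM (-1.17 ± 0.45). *Trib3*, a pseudokinase induced by ATF4, stood at 19.4, 21.9 and 20.0 CPM against 10.2, 14.0 and 2.89 CPM (-1.18 ± 0.52). *Asns* and *Trib3* had their lowest value in MKO replicate 3, as did *Aars*, *Cars*, *Mars1* and most other cytosolic synthetases. The count of 9 became 6 without f/f replicate 1 and without each MKO replicate in turn.

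Of 22 interferon-gamma response genes, 21 were tested, of which 20 had a negative BMDM difference (median -1.73), with 19 lower and 0 higher at an unadjusted p under 0.05, beside the same 10.2% and 7.73%, and again 0 at an adjusted p under 0.05. *Irf1*, a transcription factor induced by interferon, stood at 1053, 396 and 1187 CPM in f/f and 256, 321 and 491 CPM in MKO BMDMs (-1.30 ± 0.46), and its groups overlapped where those of *Wars* did not. The f/f replicate 2 was the lowest f/f library for both *Wars* and *Irf1*. *Ido1*, the other tryptophan gene, was under 0.50 CPM in every BMDM library and was not tested.

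The summed level of the interferon-gamma list was 4936 to 17950 CPM in f/f and 2538 to 3999 CPM in MKO BMDMs, and that of the ATF4 list was 1885 to 5570 CPM and 1292 to 1560 CPM. Neither pair of ranges overlapped as summed. The separation of the ATF4 sums rested on a single gene of that list, without which the ranges overlap. The 8 macrophage markers summed to 14900 to 16340 CPM in f/f and 20280 to 29870 CPM in MKO BMDMs, led by *Lyz2*, whose promoter drives the Cre. Without *Lyz2* the sums were 6032 to 6498 CPM and 5742 to 7546 CPM, which overlapped, and 3 of the 8 markers had a negative difference. Fibroblast markers summed to 1034 to 2636 CPM and 662 to 1322 CPM, with *Lrat* at 0. The part of these lists and markers in the synthetase differences was not tested.

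**Figure D4:**
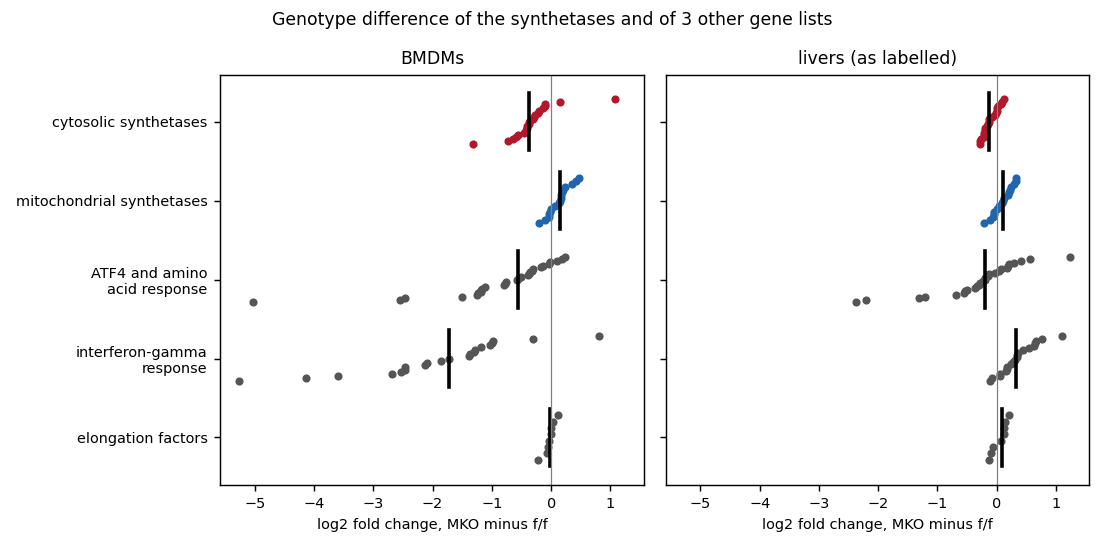
Log2 fold changes (MKO minus f/f) of single genes in BMDMs (left) and livers (right), for both classes of synthetases and 3 other lists, with 1 point per tested gene and a black bar at the median. In BMDMs the medians are -0.37 for cytosolic and 0.14 for mitochondrial synthetases, -0.56 for the ATF4 list, -1.73 for the interferon-gamma list and -0.02 for elongation factors.

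In the livers the differences between labels were small. The 38 members ranged from -0.28 to 0.33, with 15 of 21 cytosolic members negative (median -0.14) and 12 of 17 mitochondrial members positive (median 0.11), and the median of all 15062 genes tested was -0.01. With edgeR, 0 of 38 had an adjusted p under 0.05, as did 0.00% of all genes, and DESeq2 called 0 members and 1.79% of all genes. At an unadjusted p under 0.05, 0 members were lower and 1 was higher (*Hars2*, histidine, 0.21 ± 0.09), beside 5.18% and 5.27% of all genes. Groups did not overlap for 2 members that were lower (*Gars* and *Iars*) and 3 that were higher (*Nars2*, *Rars2* and *Hars2*), beside 7.74% and 9.60% of all genes.

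The largest liver differences were those of mitochondrial genes. *Nars2*, for asparagine, stood at 13.1, 14.2 and 11.7 CPM under the f/f label and 19.1, 14.9 and 14.9 CPM under the MKO label (0.33 ± 0.14). *Rars2*, for arginine, stood at 8.53, 8.44 and 7.86 CPM against 8.91, 11.0 and 11.1 CPM (0.32 ± 0.14). Both were separate by narrow margins, and *Mars2* at 3.05, 2.43 and 2.95 CPM against 2.60, 3.81 and 3.89 CPM (0.29 ± 0.25) overlapped.

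On the cytosolic side, *Tars* stood at 127, 79.5 and 103 CPM under the f/f label and 85.2, 82.3 and 87.9 CPM under the MKO label (-0.28 ± 0.17). *Aars* stood at 324, 229 and 253 CPM against 202, 213 and 250 CPM (-0.28 ± 0.16), and *Gars* at 47.0, 37.2 and 37.5 CPM against 34.7, 34.2 and 31.9 CPM (-0.27 ± 0.12). The f/f replicate 1 had the highest value of all 3 genes, and the groups of *Tars* and *Aars* overlapped. That library had the lowest liver normalization factor (0.891) and the lowest summed fibroblast or stellate markers, 27.3 CPM, where the other livers had 92.5 to 239 CPM. Its endothelial markers were lowest too (38.3 CPM, others 72.2 to 130.5 CPM), and its neutrophil markers highest (93.6 CPM, others 8.19 to 29.03 CPM). Without this library the cytosolic median was -0.01 and the mitochondrial median 0.17, and the part of its make-up in these values was not tested.

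The gap between the classes was 1.83, 1.66 and 1.62 in livers labelled f/f and 1.46, 1.52 and 1.54 in livers labelled MKO, again without overlap. The cytosolic member had the more negative difference in 12 of 14 pairs (median 0.24), with valine and tryptophan the exceptions. Of the ATF4 list, 27 genes were tested in liver, with 4 lower and 1 higher at an unadjusted p under 0.05 (median -0.20), beside 5.18% and 5.27% of all genes. *Asns* stood at 61.0, 11.0 and 9.62 CPM under the f/f label and 3.10, 4.12 and 8.60 CPM under the MKO label (-2.38 ± 0.82), and without f/f replicate 1 its difference was -0.99. *Atf4* (0.03 ± 0.18) and *Trib3* (-0.24 ± 0.30) overlapped.

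Of the interferon-gamma list, 20 genes were tested in liver, and 18 had a positive difference (median 0.32), with 0 lower and 4 higher at an unadjusted p under 0.05, beside the same 5.18% and 5.27%. Neither list had a gene at an adjusted p under 0.05 in liver. *Irf1* differed by -0.12 ± 0.28, with overlapping groups. The scaffolds *Aimp1* (-0.01 ± 0.09), *Aimp2* (0.24 ± 0.18) and *Eef1e1* (0.15 ± 0.19) and the 8 elongation factors (median 0.09) had 0 genes at an unadjusted p under 0.05.

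Whether the genotype difference itself differed between BMDMs and livers was tested as an interaction in all 12 libraries. With edgeR, 0 of 38 members had an adjusted p under 0.05, beside 0.00580% of all genes, which is 1 gene of 17246. At an unadjusted p under 0.05 there were 5 members (*Wars*, *Rars*, *Kars*, *Farsa* and *Tarsl2*), beside 14.5% of all genes. For *Wars* the BMDM difference was lower than the liver difference by 1.44 ± 0.27 on the log2 scale. DESeq2 called 1 member, *Wars*, where it called 4.49% of all genes. Without BMDM f/f replicate 2, edgeR called *Wars* and *Rars* at an adjusted p under 0.05. The interaction is built from the contrasts in which the family and *Wars* were singled out, so nothing is read from these counts. Both contrasts use the labels as given, and a liver label set turned round would change the sign of its part.

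BMDMs and livers without the Cre differed far more in these genes than the genotypes did. Between f/f BMDMs and f/f livers, 6 members were higher in BMDMs and 17 higher in livers at an adjusted p under 0.05 (edgeR), beside 29.6% and 33.8% of 15931 genes. The classes parted here. Of the mitochondrial members, 13 of 17 were higher in liver and 0 higher in BMDMs (median -1.27), and of the cytosolic members 6 were higher in BMDMs and 4 in liver (median 0.14), with an all-gene median of -0.05. Upper-quartile scaling raised the all-gene median by 0.13, to 0.09. Cell type, culture, TSH, diet, fasting, insulin and the age of the mice all differ between these groups and cannot be told apart. The f/f BMDM libraries also entered the genotype contrast in view when the family and *Wars* were chosen. The tissue p-values are therefore not independent of that choice, least of all that of *Wars*.

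*Wars* had the largest difference in favour of BMDMs. On a scale common to the 6 f/f libraries it stood at 144, 123 and 173 CPM in BMDMs and 30.4, 21.0 and 20.1 CPM in livers (2.62 ± 0.24, adjusted p = 0.000249). *Rars* stood at 84.1, 65.8 and 121 CPM against 38.4, 35.2 and 35.3 CPM (1.32 ± 0.24, adjusted p = 0.00394). *Lars*, for leucine, stood at 66.0, 62.0 and 63.6 CPM against 44.8, 30.3 and 32.0 CPM (0.84 ± 0.19, adjusted p = 0.00771). All 3 had separate groups.

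*Gars* followed at 91.1, 85.3 and 90.6 CPM in BMDMs against 60.6, 49.2 and 49.4 CPM in livers (0.75 ± 0.15, adjusted p = 0.00511), and *Sars* (serine) and *Cars* were the other members called higher in BMDMs. *Wars2* was not called (0.40 ± 0.19, adjusted p = 0.113).

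The largest differences in favour of liver were led by *Tarsl2*. It stood at 2.57, 2.09 and 0.71 CPM in BMDMs and 14.2, 14.6 and 12.8 CPM in livers (-2.94 ± 0.47, adjusted p = 0.00221). *Nars2* stood at 3.46, 4.59 and 2.69 CPM against 16.9, 18.7 and 15.4 CPM (-2.24 ± 0.25, adjusted p = 0.000487). *Vars2* stood at 7.50, 5.88 and 4.67 CPM against 23.0, 26.6 and 31.1 CPM (-2.16 ± 0.23, adjusted p = 0.000449). In each of the 3 genes f/f BMDM replicate 3 was the lowest library.

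*Fars2*, the mitochondrial phenylalanine enzyme, stood at 8.25, 9.76 and 5.78 CPM in BMDMs against 28.8, 30.6 and 27.2 CPM in livers (-1.86 ± 0.22, adjusted p = 0.000659). Cytosolic members called higher in liver were *Tarsl2*, *Tars*, *Aars* and *Dars* (aspartate). The mitochondrial members that were not called were *Mars2*, *Pars2* (proline), *Rars2* and *Wars2*.

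**Figure D5:**
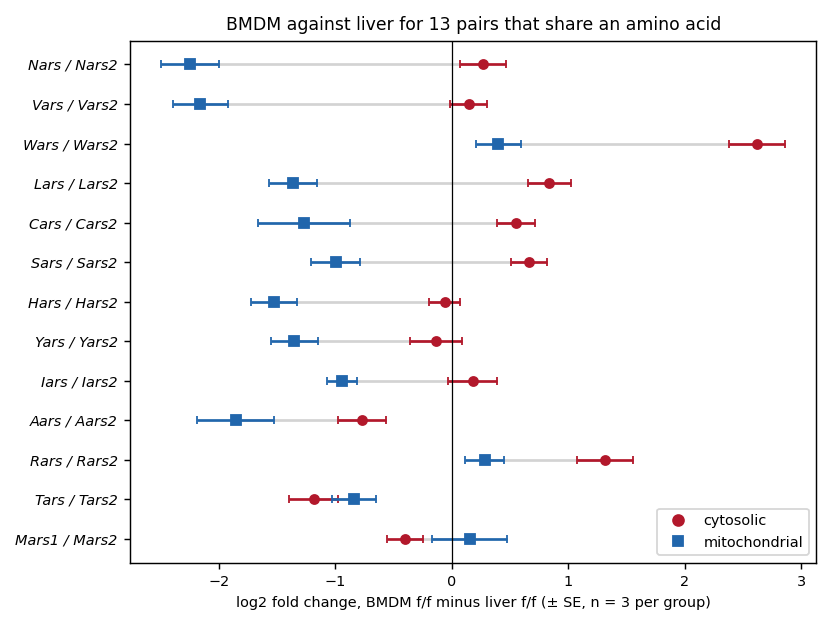
Log2 fold change of f/f BMDMs minus f/f livers, with its SE (n = 3 per group), for 13 of the 14 amino acids that have a cytosolic (circles) and a mitochondrial member (squares). The cytosolic member lies farther right in 11 of the 13 pairs drawn, with methionine and threonine the exceptions.

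Across the 14 pairs the cytosolic member was displaced toward BMDMs relative to its partner in 12, by a median of 1.34 on the log2 scale, from 2.51 for asparagine to -0.55 for methionine.

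Levels between genes were compared per kilobase of the longest coding transcript. In f/f BMDMs the 4 highest members over all BMDM libraries were *Nars* (asparagine, 84.5 ± 6.14 CPM per kb, SD, n = 3), *Wars* (73.3 ± 12.2), *Rars* (60.7 ± 18.8) and *Gars* (52.9 ± 1.59). The ranges of neighbours in this order overlapped, though within each f/f library *Nars* lay above *Wars* and *Wars* above *Rars*. In MKO BMDMs *Nars* stayed highest (73.7 ± 7.64 CPM per kb), and *Gars* (38.4 ± 2.31), *Rars* (36.6 ± 1.49) and *Wars* (29.4 ± 3.26) lay in the reverse order. Other members came between them there. The mean of *Kars* (37.6 CPM per kb) lay between those of *Gars* and *Rars*, and *Eprs*, *Qars*, *Sars* and *Aars* had higher means than *Wars*. *Nars* itself stood at 236, 213 and 246 CPM in f/f and 207, 221 and 180 CPM in MKO BMDMs, with overlap.

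In livers the order was different. The 4 highest members over all liver libraries were *Aars*, *Nars*, *Eprs* and *Dars*. Under the f/f label they stood at 46.8 ± 8.62, 37.9 ± 7.69, 26.1 ± 4.90 and 24.0 ± 2.37 CPM per kb. There *Tars*, at 25.8 ± 5.97 CPM per kb, had a higher mean than *Dars*. The ranges of neighbours overlapped, though within each library labelled f/f *Aars* lay above *Nars* and *Nars* above *Eprs*. *Nars* stood at 128, 86.8 and 98.0 CPM under the f/f label and 82.5, 87.1 and 98.4 CPM under the MKO label. *Eprs* stood at 156, 115 and 113 CPM against 114, 108 and 120 CPM, and *Dars* at 55.8, 54.3 and 46.2 CPM against 50.9, 54.3 and 50.8 CPM. These ranges overlapped. With the length of all exons in place of the coding transcript, the 4 highest in BMDMs were the same genes, and *Tars* and *Mars1* replaced *Eprs* and *Dars* in liver.

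Per kilobase the median cytosolic member was at 27.2 CPM per kb and the median mitochondrial member at 3.37 in f/f BMDMs, and at 14.2 and 4.63 in livers labelled f/f. Several members overlap another gene, among them *Hars* with *Hars2*, *Mars1* with *Ddit3*, *Iars2* with *Rab3gap2*, *Yars* with *C77080* and *Wars* with *Wdr25*. The libraries kept strand, but the strand setting of the counting is not given in the sources used here, so reads in such stretches cannot be told apart.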

How the data were processed

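Strand-specific RNA-seq of 6 BMDM and 6 liver libraries was used. The authors deposited whole-number read counts per gene for 55335 rows. Their processing notes name FastQC 0.11.2, STAR, StringTie and mm10, and the counting program and strand setting are not given in the sources used here. Of the gene identifiers, 55154 are in GENCODE vM21 (GRCm38), which gave positions and lengths. Counts were fitted over the whole table, within each tissue, with edgeR 4.0.16 (TMM factors, filterByExpr, robust quasi-likelihood, R 4.3.3) and adjusted by Benjamini-Hochberg over all genes tested. The SE is the log2 fold change over the square root of F. The tissue contrast used the f/f libraries and the interaction all 12. Scripts were tested on simulated data. Summaries and plots were made in python 3.11.15 with numpy 2.4.6, matplotlib 3.10.9 and pandas 2.3.3.

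The members, the lists, the motifs and the classes were chosen with earlier results of these data known. Values in every library are given for *Wars*, *Wars2*, the 6 largest genotype differences in each tissue, the 4 most abundant members per kilobase in each tissue (ranked over its 6 libraries), the 4 largest tissue differences in each direction, and of the lists for *Eef1e1*, *Atf4*, *Asns*, *Trib3* and *Irf1*. Library values of these last in liver are given for *Asns* only. *Kars*, *Eprs*, *Farsa*, *Farsb*, *Hars2* and *Gatc* were named after their values were seen. Some single genes are not reported here and enter only counts, medians and sums. The alternatives were DESeq2 1.42.0, RLE or upper-quartile factors, a filter at a mean of 50 counts or none, one fit of all 12 libraries, a block for the replicate number, a covariate for the letter that opens the liver sample ID, and leaving out each library. Counting *Tarsl2* as mitochondrial and summing the macrophage markers without *Lyz2* were added after the data were seen.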

Additional observations from a re-analysis of the deposited data

How the results depend on the processing

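The signs of both class medians held for the genotype contrast under every alternative run, with 1 exception given below, and *Wars* lay below the rest of the family in BMDMs throughout. In BMDMs 0 members passed an adjusted p of 0.05, except 1 with all 12 libraries in one fit (*Wars*) and 2 with DESeq2. Members higher at an unadjusted p under 0.05 numbered 1 with RLE factors, no filter or DESeq2 and 2 with all 12 libraries. With libraries left out in turn, the lower members numbered 4 to 9 and the higher 0 to 2, and the cytosolic median ran from -0.44 to -0.22. The mitochondrial BMDM median ran from -0.00 (without f/f replicate 3) to 0.25, and the gap of *Wars* to the median of the others from -1.42 to -1.03.

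In livers, members lower at an unadjusted p under 0.05 numbered 1 with RLE or upper-quartile factors, a mean of at least 50 counts or all 12 libraries, and 0 to 5 with a library left out. Higher members numbered 0 with RLE factors, DESeq2 or the ID letter, 2 with upper-quartile factors or no filter, and 0 to 1 with a library left out. The liver mitochondrial median ran from 0.0726 to 0.17 with a library left out. The tissue medians were 0.28 for cytosolic members with upper-quartile factors and, with a library left out, -1.41 to -0.92 for mitochondrial members, the smaller gap without BMDM f/f replicate 3. In the interaction DESeq2 called 1 member, and 0 to 2 were called with a library left out. The cause of these changes was not tested, other than that fewer libraries enter.

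Genes near 0 changed sign. In BMDMs *Wars2* was at 0.0633 with upper-quartile factors, 0.0109 without a filter, 0.0182 at a mean of at least 50 counts, 0.0056 with all 12 libraries, and -0.145 to 0.0853 with a library left out. *Aimp2* was at 0.0297 with upper-quartile factors and -0.206 to 0.0880 with a library left out. In livers *Wars2* was at -0.0082 with RLE factors or DESeq2 and -0.11 to 0.096 with a library left out, *Aimp1* at 0.0026 with upper-quartile factors, 0.0029 with the ID letter, 0.0083 without a filter, 0.0063 with all 12 libraries and -0.0531 to 0.0297 with a library left out, and *Trib3* at 0.0290 with the ID letter and -0.49 to 0.0737 with a library left out. *Atf4* ran from -0.0707 to 0.22 and *Irf1* from -0.37 to 0.15 with a library left out.

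Same-numbered f/f and MKO libraries, centred within each group, had correlations of 0.10, 0.01 and 0.10 in BMDMs and -0.06, 0.22 and -0.02 in livers. Libraries with unlike numbers were not compared in this way, so these values cannot decide whether the replicate numbers pair the samples. With replicate number as a block, 1 BMDM member was higher and 7 were lower at an unadjusted p under 0.05, 0 liver members were higher, and the class medians were -0.37 and 0.15 in BMDMs. *Tarsl2* counted as mitochondrial changed no class median by more than the spread of libraries. The fewest counts of a member in a library were 26, for *Tarsl2*.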
